A study of Mus musculus with 96 samples.

Results

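The subject is a division of 48 single cells, the pre-haematopoietic stem cells (pre-HSCs) of the aorta-gonad-mesonephros (AGM) region, by reads of Ly6a. The cells were chosen by their label, and the sides were chosen by 1 measured value: a cell with 1 or more Ly6a reads was placed on the side with Ly6a, and a cell with 0 reads on the side without. Of the 96 cells in the series, 48 were AGM pre-HSCs, and 22 of these had Ly6a reads while 26 had none. Every cell came from a C57BL/6 embryo at E11.5, and its sorting gate is given as Ter119-CD11b-CD144+c-kit+EPCR+. Both sides share strain, age, tissue and gate, and no genotype or treatment is named. The gate did not include Sca-1, the protein made from Ly6a, so the sides differ in RNA reads and not in a sorted protein. The labels name no animal or litter. All 48 cells were therefore treated as 1 sample, no test was made, and every value below is a description of these cells.

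Ly6a encodes Sca-1, a small GPI-anchored protein of the Ly6 family that is used to sort adult and fetal HSCs and that endothelial cells of the embryo also carry. In the AGM region, HSCs arise from the endothelium of the dorsal aorta in a change from endothelial to haematopoietic fate that requires Runx1. Pre-HSCs are the cells on this path that cannot yet repopulate an adult recipient and mature into HSCs. They still carry the endothelial cadherin CD144 (Cdh5), and they have the stem cell factor receptor c-Kit (Kit) and the endothelial protein C receptor EPCR (Procr). A reporter of Ly6a marks part of the emerging haematopoietic clusters of the aorta.

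Each well held 1 cell, and the AGM cells had between 267500 and 1889909 reads. No 2 of the 48 cells held identical values. A few cells stood apart and bear on the pooled values below. Cell 36 on the side with Ly6a, named here by the number in its label, had 11093 genes detected and 2.04% mitochondrial reads, the highest values of all 48 cells. On the side without Ly6a, cell 3 had a summed level of endothelial genes of 30773 CPM (reads scaled to a common total per cell), and cells 5 and 9 held 96.5% of the side's reads of neural genes. Several values below are also given without them. Each cell's gate genes were checked against its label: Cdh5, Kit and Procr all had reads in 16 of 22 cells with Ly6a and in 19 of 26 without, and no cell lacked all 3.

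The values that made the division are described first, and nothing is read from them. Among the 22 cells with Ly6a the lowest count was 1 read in cell 27, followed by 6 reads in cell 36 and 19 reads in cell 2, and the highest was 258 reads in cell 42. On the other side of the threshold all 26 cells had 0 reads. Scaled by depth, Ly6a was at 0.57 CPM in the lowest, 60.7 CPM in the median and 178.999 CPM in the highest cell with reads. A count of 0 allows up to 3 reads, which came to 1.59 CPM in the deepest cell without Ly6a, 2.54 CPM in the median cell and 11.2 CPM in the shallowest. Of the 22 cells with reads, 20 lay above that highest limit. In terms of sequencing depth alone, few cells with reads were thus near the line. The limit covers depth only and does not show that a cell with 0 reads lacked the transcript. When cells were thinned at random to 690000 reads, which left out 3 cells with Ly6a and 2 without, 18 of the 19 remaining cells kept a Ly6a read.

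**Figure D1:**
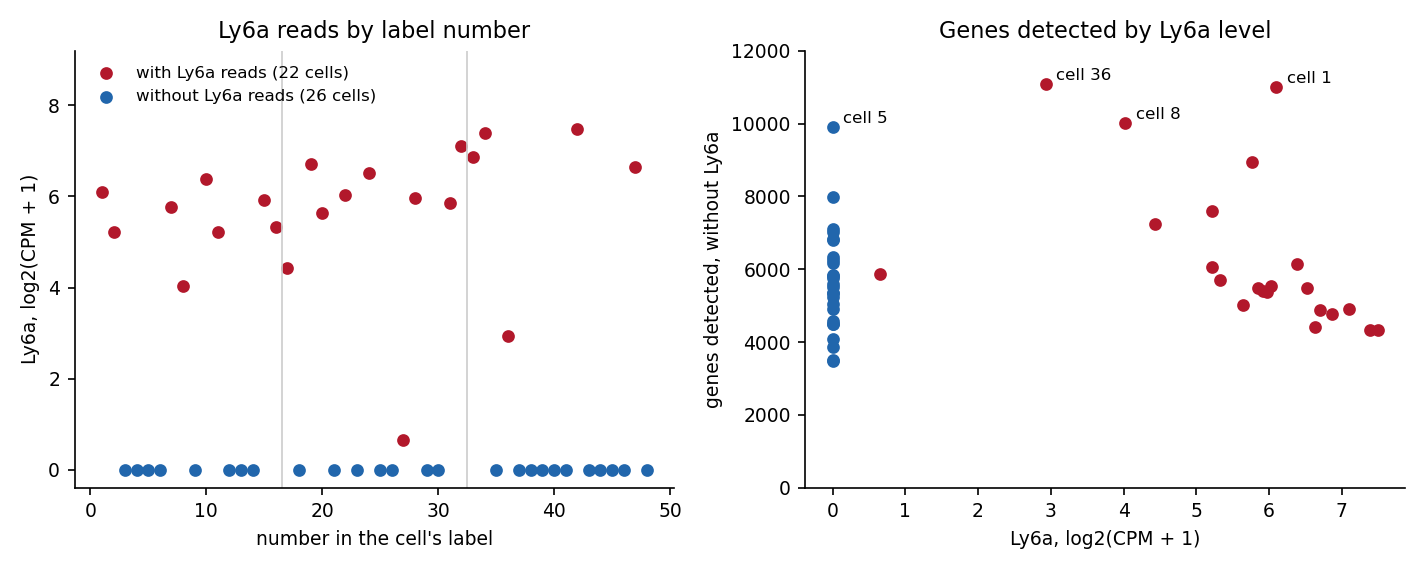
Left, Ly6a level of each of the 48 AGM cells, as log2(CPM + 1), against the number in its label, with lines between numbers 16 and 17 and between 32 and 33. Right, genes detected in each cell, Ly6a left out, against the same Ly6a level: the cells with the highest Ly6a had between 4329 and 4913 genes, and 3 of the 4 cells with over 9000 genes were on the side with Ly6a.

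The sides were alike in depth. Total reads were 525512 in the shallowest, 1350462 in the median and 1823366 in the deepest cell with Ly6a, against 267500, 1182120.5 and 1889909 without. Genes detected, with Ly6a left out, numbered 4329 in the lowest, 5506.5 in the median and 11093 in the highest cell with Ly6a, against 3486, 5559.5 and 9903 in the cells without. The medians differed by -53 genes and the ranges overlapped almost wholly, with an SD between cells of 2089 genes on the side with Ly6a and 1434 on the side without. The means were further apart, 6346.5 with Ly6a and 5670 without, since cells 1, 8 and 36 on the side with Ly6a had over 9000 genes and only cell 5 on the other side did. Without those 4 cells the means were 5659 and 5501 genes. Median mitochondrial reads were 0.639% with Ly6a and 0.585% without, and ribosomal protein genes took 9.84% and 9.72%.

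Label numbers were spread unevenly, and what the numbers stand for is not given. Of the cells numbered 1 to 16, 8 of 16 had Ly6a reads, of those numbered 17 to 32, 9 of 16, and of those numbered 33 to 48, 5 of 16, or 31.3% with an exact Clopper-Pearson 95% interval of 11.02% to 58.7%. Whether the blocks differ was not tested, since the labels name no animal or litter. A read of a Y-linked gene was found in 10 of 22 cells with Ly6a and 18 of 26 without. The part of embryo sex in the values below was not tested. Within the 22 cells with reads, cells with more Ly6a tended to have fewer genes detected. The rank correlation of Ly6a CPM with genes detected was -0.75 and with total reads -0.26. On log2 Ly6a CPM the Pearson correlations were -0.41 and -0.25. Each pair of values shares the cell's library. The 6 cells with the highest Ly6a (42, 34, 32, 33, 19 and 47) had from 4329 to 4913 genes, below the median of the side.

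Reads of Ly6a were found in other groups of the series as well. They were present in 6 of 16 yolk sac pre-HSCs of the same age and gate, at a median of 14.02 CPM in the cells with a read. In fetal liver HSCs, whose gates select Sca-1 protein, 12 of 16 cells at E12.5 had reads at a median of 251 CPM and 12 of 16 at E14.5 at a median of 114 CPM. So 4 of 16 cells sorted as Sca-1 positive at each liver stage also had 0 Ly6a reads. A count of 0 in a single cell therefore does not show that the protein was lacking.

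To compare the sides, reads were summed over the cells of each side, 28059495 with Ly6a and 32219261 without once Ly6a itself was left out, and scaled to CPM. Ratios are log2 ratios of these pooled CPM values, with over without Ly6a, with 1 CPM added to each, which makes the difference of a weakly read gene look smaller than it is. Over the 13762 genes with at least 30 reads in the 48 cells the median log2 ratio was -0.04. A ratio of 2-fold or more was common: 13.6% of genes were at least 2-fold higher with Ly6a and 17.9% at least 2-fold lower. In 60.9% of these genes over 50% of the higher side's reads came from 1 cell, and for no gene were the ranges of the 2 sides apart. Most genes were under 2-fold, but a 2-fold pooled difference does not by itself set a gene apart here. Counts past 2-fold in the lists below are to be read beside the 13.6% and 17.9% of all genes. The cell ranges and the share of cells with a read are given with each gene, since pooled intervals cover counting error only, and reads amplified by PCR without molecular identifiers do not count molecules.

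None of the 3 gate genes was past 2-fold. Cdh5, the endothelial cadherin, was at 0, 10.97 and 283 CPM in the lowest, median and highest cell with Ly6a and at 0, 37.01 and 210.9 CPM in cells without, with reads in 20 of 22 and 25 of 26 cells. Pooled Cdh5 was 51.0 CPM (95% Poisson interval 48.4 to 53.7) and 46.4 CPM (44.05 to 48.8), a log2 ratio of 0.13, so the typical cell with Ly6a had less Cdh5 although the pooled levels were near each other. Kit had reads in 21 of 22 and 22 of 26 cells, with medians of 44.4 and 94.3 CPM and highest values of 322 and 284 CPM, and its pooled log2 ratio was -0.12. Procr had the lowest pooled ratio of the 3, and its cells were at 0, 150 and 1452 CPM with Ly6a and at 0, 256 and 1221 CPM without. Pooled Procr was 224.4 CPM (218.9 to 230.03) against 359 CPM (352 to 366), a log2 ratio of -0.68, with reads in 19 of 22 and 22 of 26 cells. Cell 19 alone held 24.4% of the Procr reads on the side with Ly6a, and without it the ratio was -1.02. By label number the Procr ratio was -1.14, 0.22 and -2.49 in the first, middle and last 16 cells, so its direction was not the same in all blocks. For each gate gene the cells of the 2 sides overlapped.

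**Figure D2:**
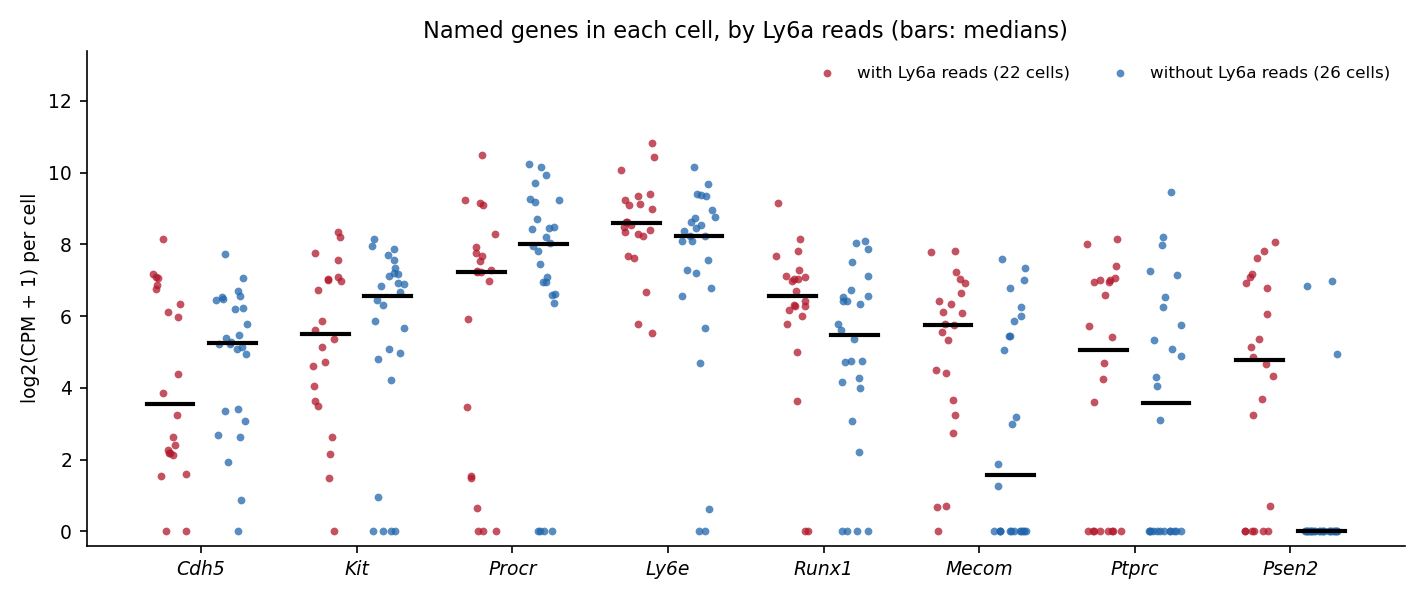
Level of 8 genes in each AGM cell as log2(CPM + 1), with Ly6a reads in red (22 cells) and without in blue (26 cells); bars are medians over cells. The sides overlap for every gene, and Mecom and Psen2 have reads in more of the cells with Ly6a (21 of 22 against 14 of 26, and 16 of 22 against 3 of 26).

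Ly6a lies on the minus strand of chromosome 15 (chr15:74994877-74998031, GRCm38, GENCODE M21) within a cluster of Ly6 genes, a family of small cell surface proteins with a shared cysteine-rich fold. Its neighbour Ly6e (chr15:74955051-74959905, plus strand) had reads in 22 of 22 cells with Ly6a and 24 of 26 without. Cells were at 45.5, 383 and 1822 CPM of Ly6e with Ly6a reads and at 0, 298 and 1139 CPM without. Pooled Ly6e was 536.5 CPM against 328 CPM, a log2 ratio of 0.71, and with any 1 cell omitted the ratio lay between 0.51 and 0.88. It was above 0 in each block of label numbers, at 0.77, 1.33 and 0.77. Ly6e was therefore higher on the side with Ly6a under every setting tried, though by less than 2-fold in the pooled reads.

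The other measured members of the family gave little. Ly6c1, a close relative of Ly6a on the same chromosome (chr15:75044018-75048830), had 68 reads, all in cell 36, the cell with 6 Ly6a reads. Gpihbp1, which carries lipoprotein lipase across capillary endothelium, had reads in cell 36 and cell 21 only. Of the 1297 windows of 50 bases in the Ly6a transcripts, 246 (18.97%) also occur in transcripts of other genes, 15.03% of all windows in Ly6c1 and 2.39% in Ly6i. Reads from those stretches could be split between genes or discarded, depending on how reads with several matches were counted, which is not given in the sources used here. In the other 47 cells Ly6c1 had 0 reads. The other Ly6 genes in the table (Ly6h, Lynx1, Ly6g6d, Ly6g6e and Ly6g5b) had between 4 and 25 reads in all and were not compared.

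Of 16 transcription factors of the endothelial-to-haematopoietic change 0 were past 2-fold in either direction, and the median log2 ratio was -0.06. Runx1, which this change requires, had reads in 20 of 22 cells with Ly6a and 22 of 26 without, with lowest, median and highest values of 0, 93.5 and 570 CPM against 0, 43.7 and 274 CPM. Its pooled log2 ratio was 0.51, and -0.23 in label numbers 17 to 32. Cbfb, the partner that stabilises Runx1 on DNA, had a ratio of 0.84 with reads in 19 of 22 and 16 of 26 cells, and was at -0.52 in label numbers 1 to 16. Lmo2, a bridge between haematopoietic factors, had a ratio of 0.26, and -0.17 in label numbers 33 to 48. Gfi1, a repressor that shuts down the endothelial programme, had reads in more cells with Ly6a, 13 of 22 against 8 of 26, but a pooled log2 ratio of -0.61, since the cells without Ly6a that did have reads reached higher values (up to 249 CPM against 140.8 CPM). In label numbers 33 to 48 the Gfi1 ratio was 0.31. Gata2, an early haematopoietic factor, had reads in 20 of 22 and 24 of 26 cells and a ratio of -0.17, which was 0.62 in label numbers 17 to 32.

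Genes of haematopoietic cells leaned slightly to the side with Ly6a. Of 24 genes, 1 was past 2-fold higher and 0 were past 2-fold lower, below the 13.6% and 17.9% of all genes. A ratio above 0 was found for 16 of the 24, where 47.7% of all genes compared had one. The median log2 ratio was 0.22. That median was 0.69, 0.25 and -0.38 in the 3 blocks of label numbers, so the lean was not seen in the last 16 cells. Rac2, a small GTPase of blood cells, was at 0, 270 and 1073 CPM in cells with Ly6a and 0, 127 and 1096 CPM without, and Was, an actin regulator of blood cells, had reads in 16 of 22 against 12 of 26 cells. The gene past 2-fold was Plac8, with reads in only 4 of 22 and 2 of 26 cells. Cd53, a tetraspanin of leukocytes, had reads in 9 of 22 cells against 3 of 26, yet similar pooled levels (17.1 and 15.4 CPM), and cell 40 held 89.9% of the reads of the side without.

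Ptprc, which encodes the pan-haematopoietic surface protein CD45 that divides earlier from later pre-HSCs, had reads in 14 of 22 cells with Ly6a and 14 of 26 without, and pooled levels of 72.6 and 72.9 CPM. Cell 45 held 36.3% of the Ptprc reads on the side without Ly6a, and without it the log2 ratio was 0.58. Itgam, which encodes the CD11b that the gate removed, had reads in 3 of 22 and 5 of 26 cells, at 0.75 and 2.11 CPM pooled. The 2 other surface genes used to stage pre-HSCs were as even: Itga2b (CD41) had reads in 12 of 22 and 14 of 26 cells and Spn (CD43) in 16 of 22 and 18 of 26.

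Among 22 genes associated with HSCs, 2 were past 2-fold higher with Ly6a and 1 was past 2-fold lower, and the median log2 ratio was -0.04. Counted by the share of cells with a read, 2 of the 22 were at least 25 percentage points higher with Ly6a and 0 lower, where 4.12% of all genes were that much higher and 0.247% that much lower. Those 2 were Mecom and Hoxa10. Mecom, which encodes the transcription factor Evi1 needed for HSC maintenance, had reads in 21 of 22 cells with Ly6a (95.5%, exact 95% interval 77.2% to 99.9%) and in 14 of 26 without (53.8%, 33.4% to 73.4%). Its cells were at 0, 53.5 and 224.2 CPM with Ly6a and at 0, 2.04 and 192.6 CPM without. Of the 26 cells without Ly6a 12 had no Mecom read, 4 were under 10 CPM and 7 were at or above the median of the cells with Ly6a. Pooled Mecom was 63.3 and 34.5 CPM, a log2 ratio of 0.86, which stayed between 0.65 and 1.12 as each cell was left out. The ratio was -0.51, 0.55 and 2.82 in the 3 blocks of label numbers, so in the first 16 cells the pooled Mecom level was lower with Ly6a.

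Hoxa10, a homeobox gene of the 5' HoxA group, had reads in 11 of 22 cells with Ly6a and 6 of 26 without, at 0, 0.319 and 62.8 CPM against 0, 0 and 9.91 CPM. Its pooled log2 ratio was 2.13, and no cell held over 17.3% of the reads of the side with Ly6a. Unlike that of Mecom, the ratio of Hoxa10 was above 0 in every block (2.31, 1.83 and 1.40). Prdm16, a zinc finger factor of HSC maintenance, had reads in 6 of 22 against 2 of 26 cells and a log2 ratio of 2.32, with 55.6% of its reads in cell 42. Lin28b, an RNA-binding protein of the fetal blood programme, was the gene past 2-fold lower, at a log2 ratio of -1.07, with reads in 10 of 22 and 15 of 26 cells. Fgd5, a Cdc42 exchange factor used to mark HSCs and endothelium, had reads in 10 of 22 and 16 of 26 cells and a ratio of -0.96. Hlf, an HSC transcription factor, was at -0.18.

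Of 26 endothelial genes 0 were past 2-fold higher and 6 past 2-fold lower, where 17.9% of all genes were, with a median log2 ratio of -0.13. The 6 were Mmrn2, Sox7, Cldn5, Sox18, Ramp2 and Plvap, with ratios from -1.70 to -1.13. In cell 3, on the side without Ly6a, each of them had its highest level of all 26 cells, and that cell held from 31.97% of the side's reads (Cldn5) to 81.2% (Sox7). Without cell 3, a setting chosen after seeing the data, the ratio of Cldn5, the tight junction claudin of endothelium, was -0.86, that of Plvap, a protein of endothelial diaphragms, was -0.43, and that of the transcription factor Sox7 was 0.69. The list median was then 0.19. It was -0.32 without cell 36, the highest cell of the other side, and -0.37 without cells 1, 5, 8 and 36. Cldn5 was read in 13 of 22 cells with Ly6a and in 18 of 26 without, with medians of 29.99 and 73.7 CPM, and Ramp2, a co-receptor of adrenomedullin signalling, in 20 of 22 and 26 of 26 cells with medians of 144.5 and 196.1 CPM. With cell 3 left out the medians without Ly6a were 70.9 and 195.07 CPM, so the typical cell had less of both with Ly6a whether or not cell 3 was counted. Leaving out 1 of 26 cells can move a median only a little, so this says little about the part of cell 3. The pooled Ramp2 ratio went from -1.16 to -0.56 without that cell.

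In arterial endothelium Notch receptors and their ligands drive Hey and Hes repressors, and the same pathway is needed in the AGM region for HSCs to form. Of 20 arterial and Notch pathway genes 0 were past 2-fold higher and 6 past 2-fold lower, where 13.6% and 17.9% of all genes were. The median log2 ratio was -0.52, and without cell 3 the median was 0.18. Gja4, the arterial gap junction protein connexin 37, had the lowest ratio, -3.08, yet it was read in only 4 of 22 and 3 of 26 cells, and cell 3 held 89.3% of the reads of its side at 3685 CPM. Without cell 3 its ratio was 0.018. Gja5 and Hey2 went the same way, from -2.32 and -1.92 to 0.23 and 0.20. Hey1, a Notch target, had reads in more cells with Ly6a, 10 of 22 against 5 of 26, and its log2 ratio was 0.42 with cell 3, 2.13 without it and -0.55 in label numbers 1 to 16. Sox17, an arterial factor that also supports the emerging haematopoietic clusters, did not depend on cell 3: its ratio was -2.38, and -2.11 without that cell, with reads in 4 of 22 and 8 of 26 cells. Its highest cell was cell 40, at 436 CPM, and the ratio was below 0 in each block of label numbers (-1.84, -2.96 and -1.95). Of the venous and lymphatic genes, 4 of 8 were past 2-fold lower and 0 higher, beside the same shares of all genes. Most of them were read in fewer than 7 cells of either side.

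**Figure D3:**
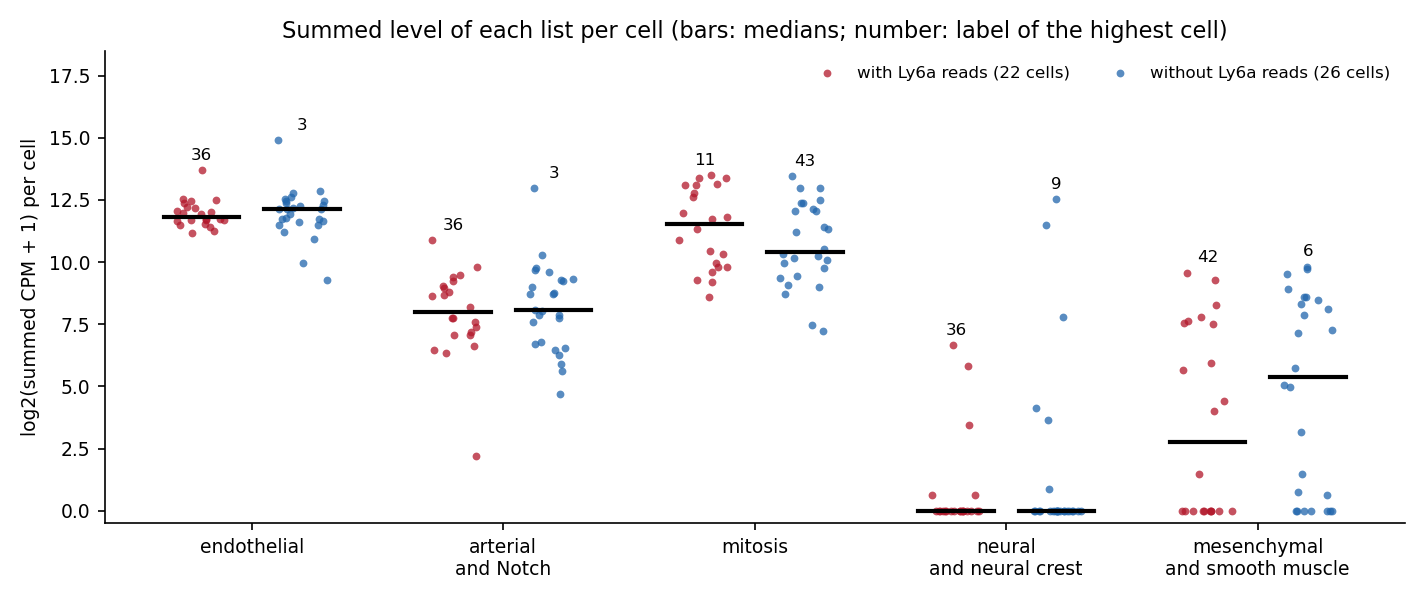
Summed level of 5 gene lists in each AGM cell, as log2(summed CPM + 1), by Ly6a reads; bars are medians over cells, and the number above each column is the label number of its highest cell. Cell 3 stands at the top of the endothelial and arterial columns without Ly6a and cell 36 at the top of those with Ly6a, while the medians of these columns lie close together. Medians are further apart for mitosis (2990 CPM with Ly6a, 1373 CPM without) and for mesenchymal and smooth muscle (8.52 and 42.3 CPM).

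Of 11 genes of the BMP and TGF-beta response, pathways active beneath the aorta, 0 were past 2-fold higher and 1 lower, the receptor gene Bmpr1a at -1.84, of whose reads cell 3 held 77.6% on the side without Ly6a. Without cell 3 its ratio was 0.00058, and in label numbers 33 to 48 it was 2.47. The list median was -0.57 with 8 of 11 genes below 0, and -0.28 without cell 3, and in the 3 blocks of label numbers it was -0.37, -0.66 and 0.42. Of 31 genes of MHC class I and interferon signalling, 4 were past 2-fold higher and 5 lower, near the 13.6% and 17.9% of all genes. The median of the 31 genes was -0.04. Ly6a itself is an interferon-inducible gene, so these were of interest beside it. Tap1, the peptide transporter, had a log2 ratio of 2.79 but reads in only 5 of 22 and 3 of 26 cells, and Stat2, a transducer of type I interferon, a ratio of 1.90 with reads in 6 of 22 and 4 of 26. Irf7, an interferon regulatory factor, was at -3.87 with reads in 1 of 22 and 5 of 26 cells. These 3 genes were thus read in few cells on both sides. Of 23 immediate-early and stress genes, which respond to cell handling, 3 were past 2-fold higher, near the share of all genes, and 1 lower. Their median was 0.22, which was 0.33, 0.71 and -1.17 in the 3 blocks. Btg2, an antiproliferative early gene, had a ratio of 1.04 with reads in 17 of 22 and 21 of 26 cells.

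Of 22 mitotic genes, 20 had a ratio above 0, where 47.7% of all genes compared did, and the median log2 ratio was 0.51. Past 2-fold, 3 of the 22 were higher and 0 lower, and 3 of 22 is close to the 13.6% of all genes. The median was above 0 in each block of label numbers (0.14, 0.58 and 0.67) and with each cell left out (0.32 to 0.73). The 22 genes are read in the same cycling cells and are not independent of each other. The summed level of the list was 389, 2990 and 11562 CPM in the lowest, median and highest cell with Ly6a, and 149.1, 1373 and 11246 CPM without. The 2 sides covered nearly the same range, and the difference lay in the middle of it. Plk1, the kinase of mitotic entry, was past 2-fold at a log2 ratio of 1.91, with reads in 11 of 22 and 7 of 26 cells. Nusap1, a spindle microtubule protein, had a ratio of 1.26 with reads in 14 of 22 and 14 of 26 cells. Ube2c, which passes ubiquitin to mitotic cyclins, had a ratio of 1.04 with medians of 122 and 52.4 CPM over cells. Hmmr, another spindle protein, was at -0.88, and at 1.24 in label numbers 17 to 32. Of 19 DNA replication genes 1 was past 2-fold higher, Ccne2 at 1.52, and 0 lower, with a median of 0.16, and Mcm2, a subunit of the replicative helicase, was at -0.33. Unlike the mitosis median, the replication median changed sign between blocks of label numbers (0.12, -0.33 and 0.70). It was -0.20 in cells with at least 5000 genes.

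**Figure D4:**
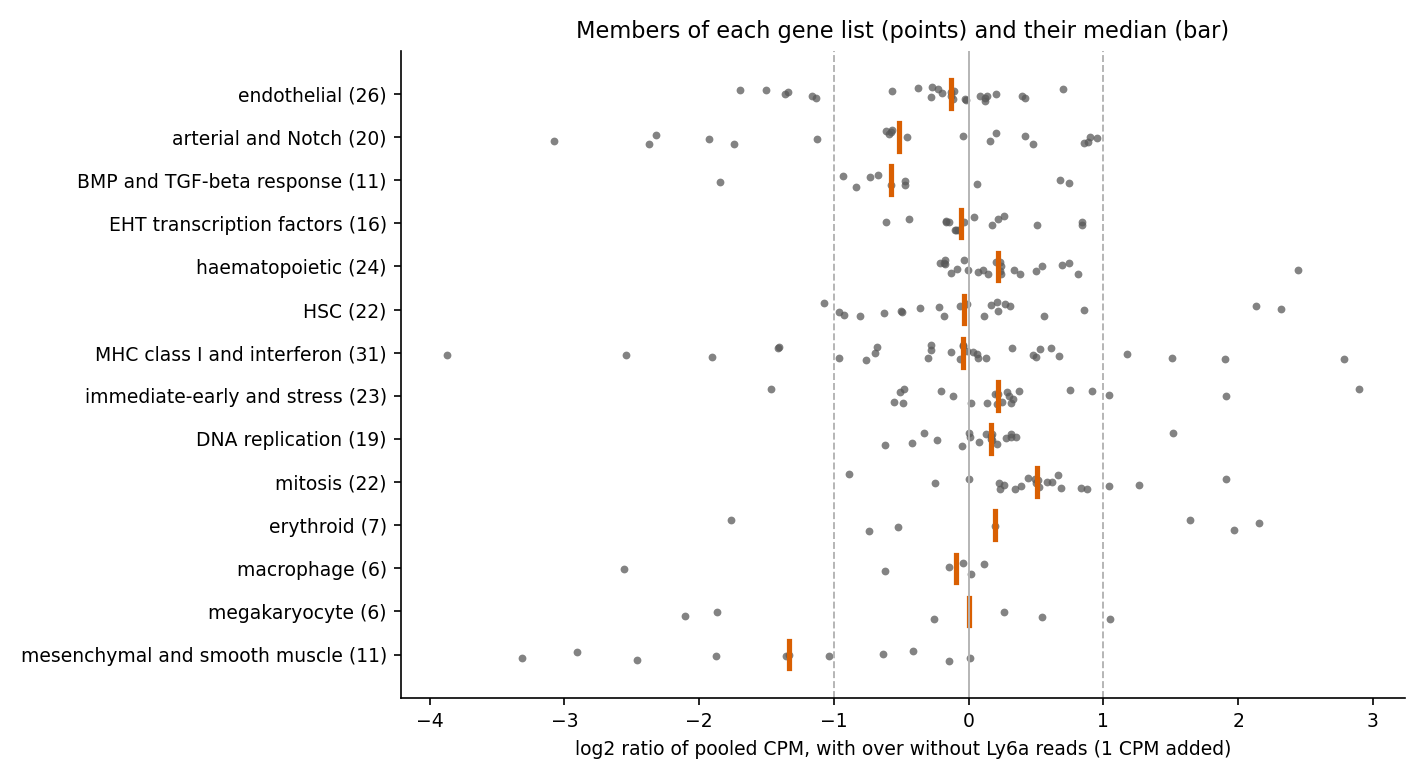
Log2 ratio of pooled CPM, with over without Ly6a reads, for each member of 14 gene lists (number of members in brackets; EHT, endothelial-to-haematopoietic), with the list median as an orange bar and dashed lines at 2-fold. The mitosis median lies at 0.51 and that of the EHT transcription factors at -0.06, while members of the arterial list spread down to -3.08.

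Of the erythroid genes, 3 of 7 were past 2-fold higher with Ly6a and 1 lower, where 13.6% and 17.9% of all genes were. The list median was only 0.20, and 0.25, 1.26 and 3.24 in the 3 blocks of label numbers. It ran from -0.47 without cell 27 to 1.43 without cell 44. Cell 27, with 1 Ly6a read, had the highest summed level of the list, 644 CPM. With 10 or more Ly6a reads, which leaves out cells 27 and 36, the median was -1.12. The defining genes Gata1 and Slc4a1 had 0 reads on both sides. Hbb-bt, an adult beta globin whose transcript is nearly identical to that of Hbb-bs so that reads may be split between them, was at 0, 15.7 and 525 CPM in cells with Ly6a and 0, 1.26 and 239 CPM without. Its log2 ratio was 2.16, with reads in 15 of 22 and 14 of 26 cells. The embryonic globin Hbb-y had a ratio of 1.64 with reads in 9 of 22 and 4 of 26. Of 6 macrophage genes 0 were past 2-fold higher and 1 lower, with Adgre1 and Cx3cr1 at 0 reads on both sides. The list's summed level was 82.9, 608 and 1639 CPM with Ly6a and 0, 573 and 6526 CPM without, and Lyz2 gave 86.9% of the list's reads in the 48 cells. Prtn3, a granule protease of myeloid progenitors, had reads in 21 of 22 and 20 of 26 cells at medians of 266 and 120 CPM, and a log2 ratio of 1.29 that was above 0 in each block (1.58, 1.74 and 0.79), while Mpo, the granule peroxidase, was at -0.09 and Elane had 0 reads. Of 6 megakaryocyte genes 1 was past 2-fold higher and 2 lower.

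Genes of the tissues around the aorta were read on both sides. The mesenchymal and smooth muscle list had reads in 12 of 22 cells with Ly6a and 19 of 26 without, and the neural list in 5 of 22 and 6 of 26. Of 11 mesenchymal and smooth muscle genes 0 were past 2-fold higher and 7 lower, where 13.6% and 17.9% of all genes were. Their median log2 ratio was -1.33. Lum and Prrx1 had 0 reads in the 22 cells with Ly6a and were read in 2 and 3 of the 26 cells without. Col3a1, a fibrillar collagen, was read in 1 and 4 cells, and cell 6 held 40.3% of the side's reads. The list's summed level was 0, 8.52 and 760 CPM with Ly6a and 0, 42.3 and 896 CPM without. All 4 neural genes that were compared were past 2-fold lower: cell 9 held 71.6% of the Tubb3 reads without Ly6a, and Sox10, the neural crest factor, was read in cell 5 alone. The neural median was -3.42, and -0.74 without cells 5, 6 and 9. Whether such reads came from RNA of neighbouring cells, a second cell in the well or the sorted cell was not tested. Of the primordial germ cell genes, which were included because germ cells pass near the AGM region, Nanos3 had reads in 11 of 22 cells with Ly6a and 4 of 26 without and a log2 ratio of 1.502, while Ddx4 had 0 reads with Ly6a.

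Beyond the lists, 12 genes in each direction were picked by a rule that asks for reads in 50% or more of the higher side's cells and no more than 25% of that side's reads from 1 cell. They were chosen on the same ratios that are given here, so their direction is not evidence. Higher with Ly6a, 1705 of the 13762 genes compared met the rule, and the 12 at the top had log2 ratios from 3.02 down to 1.93. The rule also asks for a higher share of cells with a read. Over all genes that share leaned to the side with Ly6a, by a median of 3.50 percentage points, and by 0 without cells 1, 5, 8 and 36. The 1705, beside 813 on the other side, is therefore not a sign that more genes were raised with Ly6a. Psen2, which encodes presenilin 2, a catalytic subunit of the gamma-secretase that cleaves Notch receptors, was read in 16 of 22 cells with Ly6a and 3 of 26 without. Its cells were at 0, 26.3 and 268 CPM with Ly6a and at 0, 0 and 125 CPM without. Pooled Psen2 was 72.5 CPM (95% Poisson interval 69.4 to 75.7) against 9.47 CPM (8.43 to 10.6), a log2 ratio of 2.81. The cells without Ly6a were nearly all at 0, but the 3 that had Psen2 reads lay within the range of the other side. The Psen2 ratio was 0.61, 6.51 and 3.09 in the 3 blocks of label numbers.

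The top ratio was that of Smim24, a small membrane protein gene, at 3.02 with reads in 12 of 22 and 2 of 26 cells. Pstpip1, a cytoskeletal adaptor of blood cells, had a log2 ratio of 2.61 with reads in 16 of 22 and 8 of 26 cells, and Acap1, which turns off the small GTPase Arf6, a ratio of 2.003 with reads in 18 of 22 and 10 of 26. The median Acap1 level was 89.0 CPM with Ly6a and 0 without. The other genes were Zranb3, an annealing helicase at stalled replication forks, Dcxr, a carbonyl reductase, Trip10, a membrane-bending adaptor, Hoxa10 as above, the hydrolase gene Bphl, Stk19, the centromere protein gene Cenpc1 and the vesicle fusion gene Vamp2. Their shares of cells ran from 50% to 68.2% with Ly6a and from 11.54% to 34.6% without. In the last 16 label numbers Trip10 and Bphl went the other way, at -0.17 and -1.44.

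On the side without Ly6a 813 of the 13762 genes met the rule, and the top 12 had log2 ratios from -2.60 to -1.73. Rfng, which encodes the Radical fringe glycosyltransferase that modifies Notch receptors, was read in 5 of 22 cells with Ly6a and 16 of 26 without. Cells were at 0, 0 and 120 CPM with Ly6a and 0, 24.6 and 239 CPM without, and the pooled levels of 12.8 CPM (11.505 to 14.2) and 45.3 CPM (42.99 to 47.7) gave a log2 ratio of -1.75. Rfng was slightly higher with Ly6a among label numbers 17 to 32, at 0.25. Itgb3, the integrin beta 3 chain that platelets and early haematopoietic cells carry, had a ratio of -2.10 with reads in 12 of 22 and 18 of 26 cells and medians of 1.65 and 30.01 CPM, and its ratio was below 0 in each block (-1.14, -2.17 and -2.58). Ccdc88a, the actin-binding protein girdin, was at -1.89 with reads in 10 of 22 and 18 of 26 cells.

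The remaining genes higher without Ly6a differed more in level than in the share of cells. Ubxn7, an adaptor of the p97 ATPase, was at -2.60 with reads in 10 of 22 and 13 of 26 cells, and Git1, an Arf regulator and scaffold, at -2.54 with 9 of 22 and 13 of 26. Ppip5k2, an inositol pyrophosphate kinase, and Ttc7b, of a phosphatidylinositol kinase complex, were read in nearly equal shares of the cells, 63.6% and 69.2% for Ppip5k2 and 50% and 53.8% for Ttc7b. The others were Tango2, the FAD synthase gene Flad1, the F-box gene Fbxw8, Nudt6 and the Polycomb gene Pcgf6. Nudt6 lies antisense to Fgf2, and whether reads were counted by strand is not given in the sources used here, so reads of the 2 genes cannot be told apart.

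**Figure D5:**
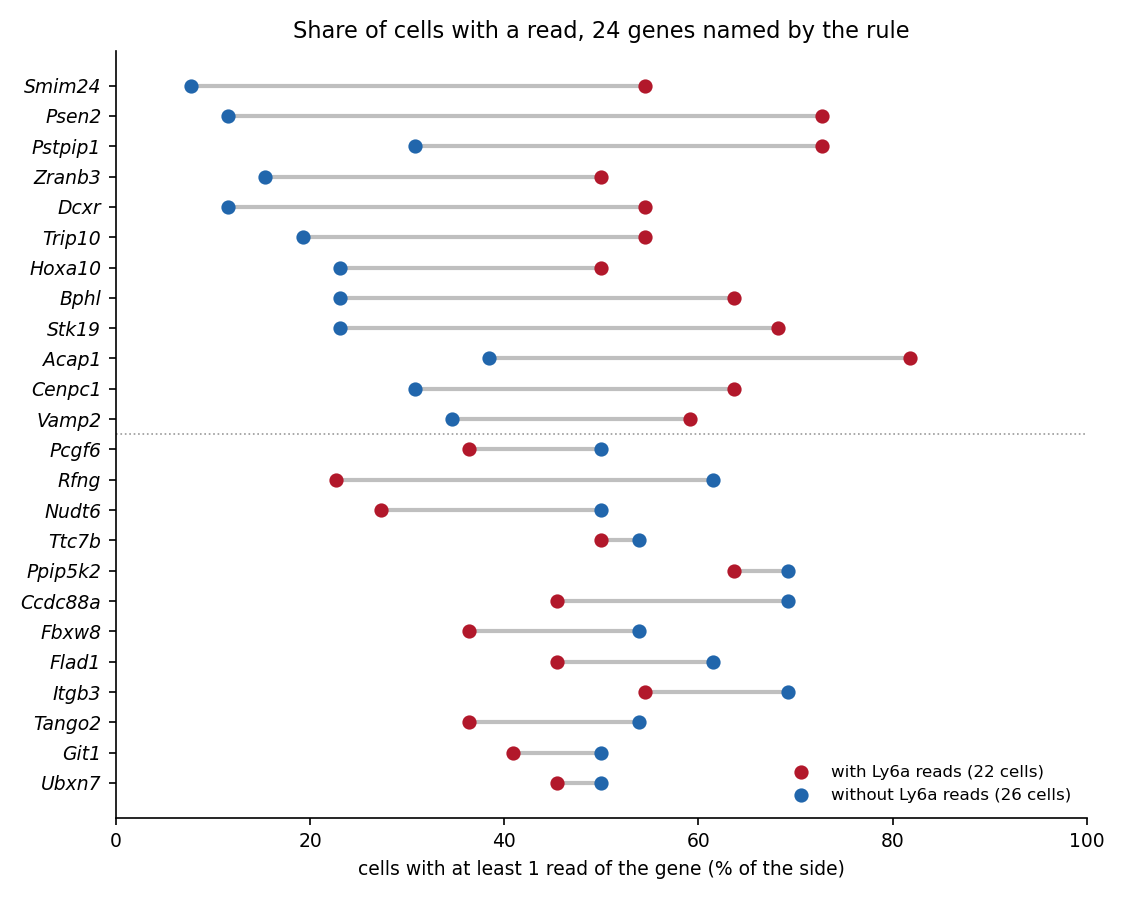
Share of cells with at least 1 read of each of the 24 genes picked by the rule, in percent of the 22 cells with Ly6a (red) and of the 26 without (blue); genes above the dotted line had the higher pooled level with Ly6a, those below it without. The widest gap is that of Psen2, 72.7% against 11.54%, and the widest in the other direction that of Rfng, 22.7% against 61.5%.

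The share of cells with a read was also compared for all 13762 genes, a measure added after seeing the data that 1 cell with many reads cannot dominate. With Ly6a 567 genes were at least 25 percentage points higher, and 34 were that much lower. This asymmetry moved with the number of genes detected per cell: without cells 1, 5, 8 and 36, each with over 9000 genes, 2.60% of genes were higher and 1.11% lower, in place of 4.12% and 0.247%, and the median difference over all genes went from 3.50 to 0 percentage points. Some genes outside the rule, named here after their values were seen, differed most in the share of cells. Htatip2, a short-chain reductase gene, and Ypel2 were each read in 10 of 22 cells with Ly6a and in 0 of 26 without, where a limit of 3 cells for a count of 0 allows a share of up to 11.54%, and the exact Clopper-Pearson upper bound is 13.2%. Pooled over the side, Htatip2 was at 22.1 CPM, 237-fold above a floor of 3 reads over the 26 cells without Ly6a. That floor covers the counting of reads only and not the number of cells, so it gives no smallest fold between the sides. In the other direction Zfp74, a zinc finger gene, was read in 1 of 22 and 10 of 26 cells, and Pde4a, a cAMP phosphodiesterase, in 4 of 22 and 13 of 26. These are the extremes of 13762 comparisons in 48 cells.

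The same division was then made in the cells of the other groups, which had no part in picking the 24 genes. Among the 12 genes higher with Ly6a in AGM cells, 9 were higher with Ly6a in the yolk sac (6 cells with, 10 without). The number was 4 in the liver at E12.5 and 5 at E14.5 (12 cells with and 4 without in each). Of all genes read there, 61.7%, 63.6% and 55.8% were higher with Ly6a. Among the 12 genes lower with Ly6a in AGM cells, 4, 7 and 4 were lower, where 38.3%, 36.4% and 44.2% of all genes were. At E14.5 Zranb3, of the first 12 genes, and Itgb3, of the second 12, had 0 reads on both sides. They have no direction there but stay among the 12, while the shares of all genes leave unread genes out. In the yolk sac the cells with Ly6a also had more genes detected, a median of 8766 against 4780. Psen2 was read in 6 of 6 and 4 of 10 yolk sac cells, at a log2 ratio of 1.09, in 5 of 12 and 1 of 4 at E12.5, where its pooled log2 ratio was -1.43, and in 3 of 12 and 0 of 4 at E14.5, at 25.9 and 0 CPM. Rfng was read in 5 of 6 and 4 of 10 yolk sac cells, at a log2 ratio of 0.59, and in 2 of 12 and 1 of 4 cells at E12.5, at a ratio of -2.57. At E14.5 Rfng was read in 6 of 12 and 0 of 4 cells, at 26.1 and 0 CPM. The share of the 24 genes that had the AGM direction, beside that of all genes, differed between the 3 groups, and the sides without Ly6a reads held as few as 4 cells.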

How the data were processed

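Single AGM cells were sorted 1 per well, cDNA was made with a SMART-Seq kit and libraries were amplified by 12 PCR cycles, per the labels' protocols. A table of raw counts, as deposited by the authors, holds the reads of each gene in the 96 cells. The submitters' processing notes name FastQC, Trimmomatic 0.36, STAR, HTSeq and the build mm10, without further settings. Of 19949 rows, 113 repeated a symbol and were summed, which gave 19836 genes. Cells were placed in groups by their titles and divided by Ly6a reads (1 or more against 0), and Ly6a was left out of all other values. The members, the 24 gene lists and the naming rule were chosen with earlier results of these data known.

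Reads were pooled per side, scaled to CPM without Ly6a, and compared as log2 ratios after adding 1 CPM for genes with at least 30 reads. No test was made. Pooled values have exact Poisson and shares exact Clopper-Pearson 95% intervals. Genes were named as the gate genes, Ly6a, Ptprc and Itgam, at most 6 members of each list with the largest ratios, and 12 in each direction with reads in at least 50% of the higher side's cells, at most 25% of its reads from 1 cell, the same sign in the mean log2 level and a higher share of cells. The last part passed over predicted, pseudo, mitochondrial, ribosomal protein and sex-linked genes. Other list members were named after their values were seen, among them Runx1's partners, Ypel2, Htatip2, Zfp74 and Pde4a, and the division in the other groups was added then. Alternatives were at least 5000 genes per cell, mean CPM, 10 CPM added, median-of-ratios scaling, thinning to 690000 reads, no read minimum, omission of the deepest cell of each side, 10 or more Ly6a reads, each block of 16 label numbers, and omission of each cell in turn. The omissions of cell 3, of cells 5, 6 and 9, and of cells 1, 5, 8 and 36 were chosen after seeing the data. Of 17680 Ensembl identifiers, 17646 matched GENCODE M21, 14969 with the same version. The calculation was tested on simulated counts. Python 3.11.15, numpy 2.4.6, pandas 2.3.3, scipy 1.17.1 and matplotlib 3.10.9 were used.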

Additional observations from a re-analysis of the deposited data

How the results depend on the processing

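Genes detected per cell, as medians with minus without Ly6a, differed by 163.5 after thinning, 113.5 when detection took 5 reads and -77 for 10 or more Ly6a reads, all within 1 SD between cells. With 10 CPM added, 344 genes were past 2-fold higher and 413 lower, against 1873 and 2458 as reported. Leaving out each cell in turn gave 1817 to 2101 higher and 2291 to 2664 lower. Higher genes were 43.2% of those past 2-fold, and 51.5% without cells 5, 6 and 9. No scaling moved the median over all genes by more than 0.1. The arterial and Notch median was 0.77 in label numbers 17 to 32, and -0.71 to 0.18 as each cell was left out. The other 7 main list medians stayed within 1 SD between cells, but that SD, 0.69 to 2.56 by list, was larger than the medians themselves. Of these 7 only the mitosis median kept its sign over the alternatives, between 0.14 and 0.73. The endothelial median ran from -0.81 to 0.47, the haematopoietic from -0.38 to 0.69 and that of DNA replication from -0.33 to 0.70. The HSC median ran from -0.63 to 0.09, the endothelial-to-haematopoietic from -0.15 to 0.25 and the MHC class I and interferon from -0.14 to 0.16.

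Of the 24 genes picked by the rule, 21 kept their sign in every alternative run. They were picked for large ratios, and the alternatives reuse the same cells, so this is not evidence for their direction. The share of all genes that kept their sign was not computed. Among genes and lists past 2-fold as reported, signs turned in label numbers 1 to 16 for Stat2 (-0.99) and Btg2 (-0.046), in 17 to 32 for Rfng (0.25), Sox7 (0.25), Gja5 (3.04), Gpihbp1 (-3.21) and the Ly6 family median (-0.94), and in 33 to 48 for Trip10 (-0.17), Bphl (-1.44), Sox7 (2.68), Plvap (0.028), Gja4 (5.41), Nrp1 (0.52), Bmpr1a (2.47), Nanos3 (-1.40), Stmn2 (3.995), the neural median (3.995) and the venous median (1.81). Without cell 3, Sox7 (0.69), Gja4 (0.018), Gja5 (0.23), Hey2 (0.20) and Bmpr1a (0.00058) turned, which were also their highest values as each cell was omitted. Their lowest were -2.41, -3.95, -3.49, -2.43 and -2.59. Some genes under 2-fold turned too, as given beside them. With 10 or more Ly6a reads the Ly6 family median was -0.56 and Gpihbp1 -1.90. As each cell was omitted Gpihbp1 ranged from -1.90 to 3.05. Without cells 1, 5, 8 and 36 the family median and Gpihbp1 were -0.60 and -1.96. These settings leave fewer cells, and no further cause was tested. With genes at 0 on 1 side set at their limit of 3 reads, the neural median was -5.12 and the primordial germ cell median -0.83, against -3.42 and 0.26. Depth does not separate a missing transcript from an unread one in a single cell. No paired analysis was possible because the result comes from no test and the sides share no replicate numbers.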
